A study of Rattus norvegicus with 6 samples.

Results

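Uromodulin (Umod), the Na-K-2Cl cotransporter (Slc12a1), the potassium channel ROMK (Kcnj1), claudin 16 (Cldn16), claudin 19 (Cldn19), barttin (Bsnd), epidermal growth factor (Egf) and the calcium-sensing receptor (Casr) are 8 genes of the thick ascending limb of the loop of Henle. Their transcripts were measured in kidney cortex from Sprague-Dawley males that were bought at 5 weeks of age and dosed for 4 weeks. The treated group was 3 rats given 100 mg/kg/day of 4-hydroxy-m-phenylenediammonium dichloride, an aromatic diamine salt. The control group was 3 rats given corn oil. The vehicle of the compound and the route of dosing are not given in the sources used here. The members are all array probes whose RefSeq accession belongs to these genes, 17 probes of 8 genes out of 28193 probes of 15639 genes that could be named. The rule uses gene names and no measured value. In bulk cortex, fewer thick ascending limb cells and less RNA per cell cannot be told apart.

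The thick ascending limb takes up sodium, potassium and chloride without water, through the cotransporter that loop diuretics block. Potassium returns to the urine through ROMK, chloride leaves through basolateral channels that need barttin, and the resulting lumen-positive voltage drives calcium and magnesium between cells through a pore of claudin 16 and claudin 19. The calcium-sensing receptor on the basolateral side lowers this transport when blood calcium is high. Uromodulin, the most abundant protein of normal urine, is made in this segment, and EGF is made here and in the distal convoluted tubule. Kcnj1, Bsnd and Casr are also expressed in other nephron segments, so a level in whole cortex is not that of this segment alone.

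Each animal had one Cy3 array. All 3 treated arrays lay on one slide and all 3 control arrays on the other, scanned separately, so that an effect of the slide and one of the compound cannot be told apart. A level is the log2 of the spot signal after division by the 75th percentile of signals on its array, and a difference of 1 is a doubling. Of the non-control probes, 68.9% to 69.6% were well above background on treated arrays and 63.1% to 67.7% on control arrays, while all 17 member probes were well above background on every array and none was saturated. Levels of different probes are compared only to choose the brightest probe of a gene and in the sums over cell type markers. Such a sum of linear levels is set mainly by its brightest probes. The number of arrays limits the precision.

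Casr was lower in treated cortex, and no other member passed the test. By limma, with Benjamini-Hochberg adjustment over 12124 genes and a threshold of 0.05, 1 of the 8 genes was called lower and 0 were called higher, and the counts at an unadjusted p under 0.05 were also 1 and 0. At that unadjusted p, 25.0% of all genes passed in either direction, the share against which every unadjusted count given here is to be read. Over all genes, 1.33% were called lower and 3.05% higher, or 161 and 370 genes (496 and 449 with a normexp background). The groups did not overlap at the brightest probe for 1 member, again Casr, which was lower, and for 0 members that were higher, where 18.7% of all genes were lower and 14.1% higher without overlap. The mean was lower in treated rats for 6 members and higher for 2, where it was lower for 6843 and higher for 5281 of the 12124 genes. The median log2 fold change of the 8 genes was -0.14, against -0.030 for all genes tested. It was -0.050 without control replicate 2, -0.22 without control replicate 1, -0.093 without treated replicate 2 and -0.079 with a normexp background. The spike-in transcripts well above background had a median log2 difference of -0.13 between treated and control arrays after the same scaling. What part that difference has in the member median was not tested.

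**Figure D1:**
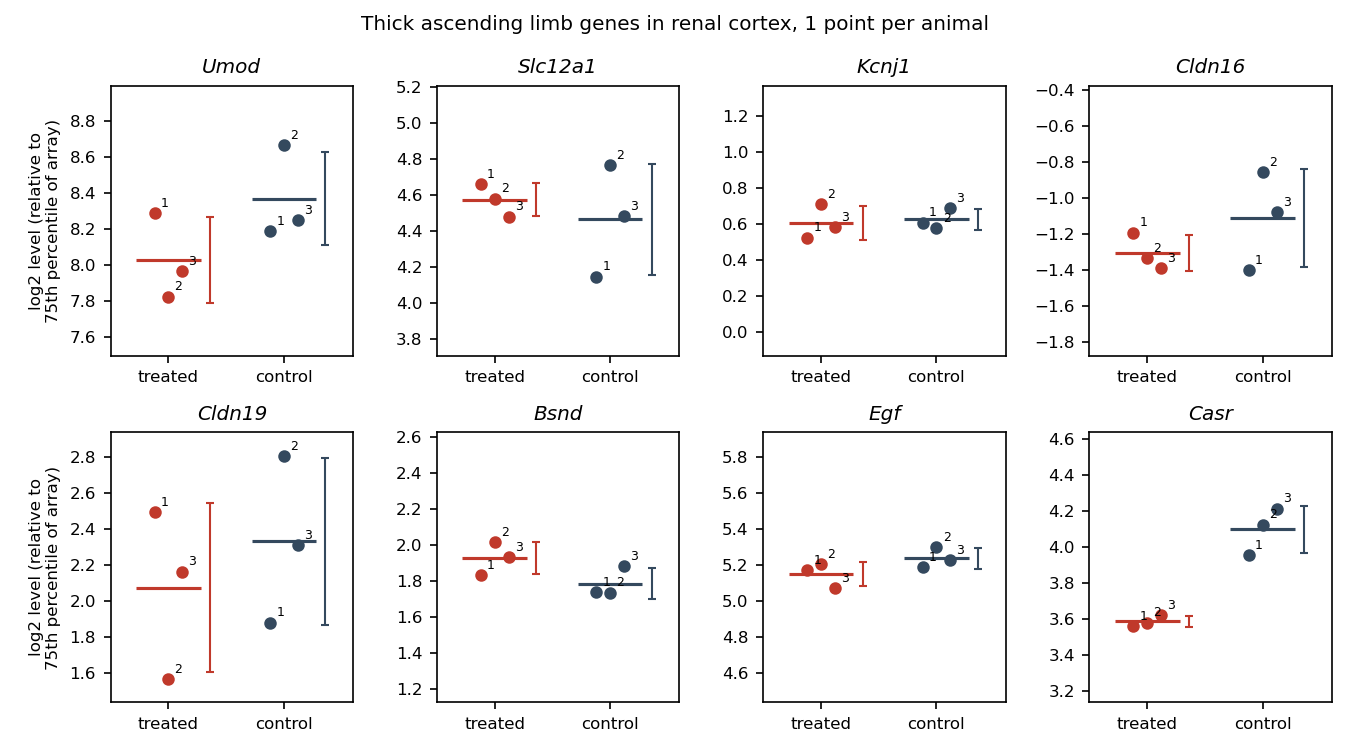
Log2 level of each of the 8 genes at its brightest probe in treated rats (left, red) and control rats (right, blue), on y axes of equal span. Points are animals numbered by replicate, horizontal lines are means and bars are SD (n = 3 each); the Casr points of the groups are apart, and those of the other genes overlap.

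Casr, the receptor through which the segment senses blood calcium, had log2 levels of 3.56, 3.58 and 3.62 in treated rats, against 3.96, 4.12 and 4.21 in control rats at its brighter probe. Every treated animal lay below every control animal. The means were 3.59 ± 0.030 in treated rats and 4.10 ± 0.13 in control rats (SD, n = 3 each), and limma gave a log2 fold change of -0.51 (SE 0.080, 95% interval -0.71 to -0.31, adjusted p = 0.035). This is 1.43-fold lower. In this fit Casr ranked 273 of 12124 genes by p. The dimmer Casr probe read 1.13, 1.04 and 1.14 in treated rats, against 1.36, 1.54 and 1.61 in control rats. It too was lower without overlap, with a log2 fold change of -0.40 that just missed the threshold in a limma fit over 40988 probes (adjusted p = 0.051), in which the brighter probe passed (adjusted p = 0.026). With a normexp background the dimmer probe passed too (log2 fold change -0.37, limma adjusted p = 0.032). The 8 spike-in transcripts well above background had a median log2 difference of -0.13 between treated and control arrays after the same scaling, which is smaller than the Casr difference; its part in that difference was not tested. The call rested on all 6 arrays: leaving out any one of them gave log2 fold changes of -0.58 to -0.45 with limma adjusted p-values of 0.053 to 0.11, and few genes of any kind were called with 5 arrays. It was also lost when Casr was represented by the mean of its probes (log2 fold change -0.46, limma adjusted p = 0.054).

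The genes whose pattern over the 6 arrays was most like that of Casr were Ptpn11, which encodes the tyrosine phosphatase SHP2, Fra10ac1, and Serbp1, which encodes an mRNA-binding protein. Their log2 deviations differed from those of Casr by a root mean square of 0.047, 0.048 and 0.060. This is a description of 6 arrays on 2 slides. Fra10ac1 and Serbp1 were called lower, with log2 fold changes of -0.48 and -0.50 (limma adjusted p = 0.023 and 0.021), and Ptpn11, at -0.43, did not pass (limma adjusted p = 0.057). These values and the likeness are those of the brightest probes. The dimmer Fra10ac1 probe had a log2 fold change of -0.16 (limma adjusted p = 0.24 over probes). The dimmer Ptpn11 probes had -0.22, -0.17 and -0.096 (limma adjusted p = 0.089, 0.13 and 0.40 over probes).

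The windows around the transcription starts of Casr, of Umod and of Cldn16 are shown because Casr was the called member, while Umod and Cldn16 were the 2 members whose windows held a searched motif. They are from RefSeq on build GRCr8 (the array design uses rn4), run from 250 bases before to 50 bases after the start, and are given on the strand of the gene. Capitals mark a match to the AP-2 motif GCCNNNGGC.
Casr promoter, chr11:77740364-77740663, plus strand: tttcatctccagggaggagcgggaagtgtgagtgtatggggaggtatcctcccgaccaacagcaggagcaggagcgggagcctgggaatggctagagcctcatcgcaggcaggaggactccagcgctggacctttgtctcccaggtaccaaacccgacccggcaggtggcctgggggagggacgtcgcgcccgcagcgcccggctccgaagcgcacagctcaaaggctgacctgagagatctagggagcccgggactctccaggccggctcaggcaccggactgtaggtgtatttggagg
Umod promoter, chr1:183260967-183261266, minus strand: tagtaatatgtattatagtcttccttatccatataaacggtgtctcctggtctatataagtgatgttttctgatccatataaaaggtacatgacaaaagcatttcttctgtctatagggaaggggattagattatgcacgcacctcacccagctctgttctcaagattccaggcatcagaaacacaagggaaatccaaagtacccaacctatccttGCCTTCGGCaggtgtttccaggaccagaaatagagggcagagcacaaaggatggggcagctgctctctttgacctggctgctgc
Cldn16 promoter, chr11:87814347-87814646, minus strand: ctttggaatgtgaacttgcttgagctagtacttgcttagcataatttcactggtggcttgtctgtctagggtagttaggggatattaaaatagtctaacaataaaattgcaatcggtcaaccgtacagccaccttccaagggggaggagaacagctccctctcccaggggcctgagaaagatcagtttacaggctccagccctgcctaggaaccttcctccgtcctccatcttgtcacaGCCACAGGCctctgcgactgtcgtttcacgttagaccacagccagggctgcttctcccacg

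All 8 members had such a window, and Slc12a1 and Kcnj1 had 2 each, 10 in all. Both strands were searched for TCAAGGTCA, bound by oestrogen-related receptors, and for the AP-2 motif. The AP-2 motif began 34 bases before the start of Umod and 11 bases before that of Cldn16, and 15.2% of 33365 distinct rat promoter windows of the same length hold it. The receptor motif, which 0.435% of windows hold, matched none of the 10. Casr had the window richest in G and C of the members, at 64.7%, and Umod the poorest, at 44.3%. These matches are letters in a window and not binding sites.

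The genes of transcellular salt transport showed no difference that passed the test. Slc12a1, the cotransporter itself, had log2 levels of 4.66, 4.58 and 4.48 in treated rats, against 4.15, 4.76 and 4.48 in control rats. The treated values lay within the range of the control values. The log2 fold change was 0.11 (SE 0.16, 95% interval -0.29 to 0.51, limma adjusted p = 0.71), an interval that runs from 1.22-fold lower to 1.42-fold higher, and the dimmer probe gave 0.067. Kcnj1, whose channel recycles potassium to the lumen, read 0.53, 0.71 and 0.59 in treated rats and 0.61, 0.58 and 0.69 in control rats at its brighter probe. Those groups overlapped, and the log2 fold change was -0.019 (95% interval -0.19 to 0.16, limma adjusted p = 0.89), the narrowest bound on a change after that of Egf. At the dimmer Kcnj1 probe the treated values of 0.29, 0.46 and 0.42 lay below the control values of 0.57, 0.50 and 0.64. That difference of -0.18 did not pass over probes (limma adjusted p = 0.21), and both Kcnj1 probes carry the same transcript accession. Bsnd, the subunit that basolateral chloride channels need, had log2 levels of 1.83, 2.01 and 1.93 in treated rats, against 1.74, 1.73 and 1.88 in control rats. Only treated replicate 1 lay within the control range. The log2 fold change of 0.14 (SE 0.076, 95% interval -0.046 to 0.33) did not pass by limma (adjusted p = 0.31) and was 0.0041 at the other probe.

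Of the paracellular pore, the claudin 16 and claudin 19 genes had lower means in treated rats, but neither difference exceeded the spread between animals. Cldn16 had log2 levels of -1.19, -1.33 and -1.39 in treated rats, against -1.40, -0.85 and -1.08 in control rats. The groups overlapped because control replicate 1 was the lowest of all 6 animals. The log2 fold change was -0.19 (SE 0.15, 95% interval -0.56 to 0.17, limma adjusted p = 0.46), and -0.21 at the second probe. It was -0.065 without control replicate 2 and -0.34 without control replicate 1. Cldn19 read 2.49, 1.57 and 2.16 in treated rats and 1.88, 2.81 and 2.31 in control rats. It had the widest spread of the 8 genes, with 1.90-fold between the highest and the lowest animal in either group. Its log2 fold changes of -0.26, -0.25 and -0.26 at 3 probes were close to each other, and the interval at the brightest probe, -1.05 to 0.54, leaves room for a 2.07-fold decrease or a 1.45-fold increase (limma adjusted p = 0.65). The Cldn19 value was -0.021 when control replicate 2 was left out and -0.0043 when treated replicate 2 was left out.

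The secreted products were likewise not called. Umod, whose protein polymerises in the tubule lumen, had log2 levels of 8.29, 7.82 and 7.96 in treated rats, against 8.19, 8.66 and 8.25 in control rats. Treated replicates 2 and 3 lay below every control animal and treated replicate 1 did not. The means were 8.03 ± 0.24 in treated rats and 8.37 ± 0.26 in control rats (SD, n = 3 each). Limma gave Umod a log2 fold change of -0.34 (SE 0.18, 95% interval -0.78 to 0.094, adjusted p = 0.29), and -0.20 at the second probe, after Casr the largest difference among the members. Without control replicate 2 it was -0.19. Egf, a growth factor released by cleavage of a membrane precursor, had log2 levels of 5.17, 5.20 and 5.07 in treated rats, against 5.19, 5.30 and 5.22 in control rats at its brighter probe. Only treated replicate 3 and treated replicate 1 lay below the lowest control animal. The log2 fold change of -0.087 (95% interval -0.24 to 0.070) did not pass by limma (adjusted p = 0.44). The dimmer Egf probe read 3.12, 3.13 and 3.02 in treated rats, against 3.26, 3.40 and 3.33 in control rats, without overlap. Its log2 fold change was -0.24 (limma adjusted p = 0.095 over probes; 0.025 with a normexp background, where it was -0.32). Whether the probes of Egf, of Kcnj1 or of Bsnd differ in their response was not tested.

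Over all 17 probes the treated mean was lower at 13. The groups did not overlap at 4 probes, both of Casr and the dimmer probes of Egf and Kcnj1, each lower in treated rats, where 16.6% of all probes tested were lower without overlap. One probe, of Casr, was called lower over probes, where 1.74% of all probes were.

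**Figure D2:**
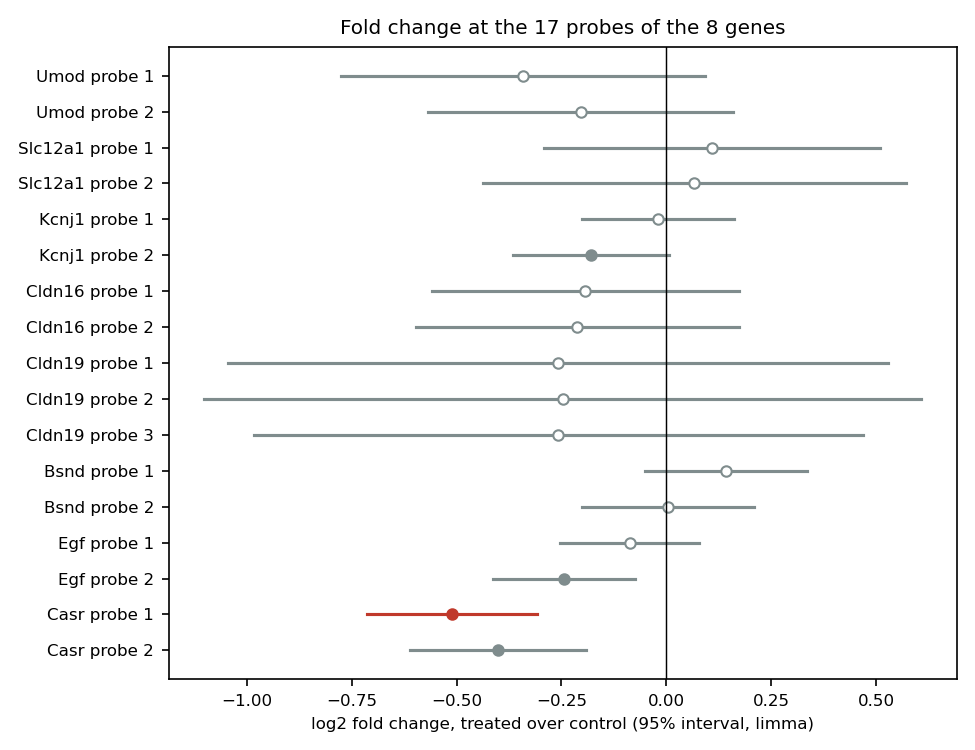
Log2 fold change, treated over control, at each of the 17 probes (x axis) with its 95% interval from limma, probes numbered from the brightest within a gene. Filled points mark probes at which the groups did not overlap and red the probe with an adjusted p under 0.05; the intervals of the 3 Cldn19 probes are the widest, and the red probe is that of Casr at -0.51.

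Umod, Slc12a1, Cldn16 and Cldn19 had the same highest animal in each group. Treated replicate 1 was the highest treated animal and control replicate 2 the highest control animal for each of these 4 genes and at all 9 of their probes. The same pair of animals was highest for 11.0% of all genes and for 10.8% of all probes tested. Relative to its group mean, Cldn19 stood at 0.42, -0.51 and 0.089 in treated rats and at -0.45, 0.47 and -0.020 in control rats. For Umod these deviations were 0.26, -0.20 and -0.060 in treated rats and -0.18, 0.30 and -0.12 in control rats. For Slc12a1 they were 0.088, 0.0058 and -0.094 in treated rats and -0.32, 0.30 and 0.019 in control rats. For Cldn16 they were 0.11, -0.029 and -0.083 in treated rats and -0.29, 0.26 and 0.032 in control rats. The lowest treated animal was replicate 3 for Slc12a1 and Cldn16, but replicate 2 for Umod and Cldn19. Control replicate 1 was the lowest control animal for all 4, and also for Egf and Casr. It was thus lowest for 6 of the 8 members, where it was lowest for 28.8% of all genes. The other members did not share the pair of highest animals. For Kcnj1 and Bsnd treated replicate 2 and control replicate 3 were highest. For Casr these were treated replicate 3 and control replicate 3, and for Egf treated replicate 2 and control replicate 2. The pooled within-group SD was 0.47 for Cldn19, 0.25 for Umod, 0.23 for Slc12a1 and 0.21 for Cldn16, against 0.094 for Casr, 0.087 for Bsnd, 0.078 for Kcnj1 and 0.063 for Egf. Its median over all genes tested was 0.12. These 2 arrays also had the highest raw 75th percentile of signal in their groups, 1001 on treated replicate 1 against 974 and 930 on the other treated arrays, and 976 on control replicate 2 against 907 and 837 on the other control arrays. Their part in the pattern was not tested. The grouping of these 4 genes was seen in the data, and no test is given for it.

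**Figure D3:**
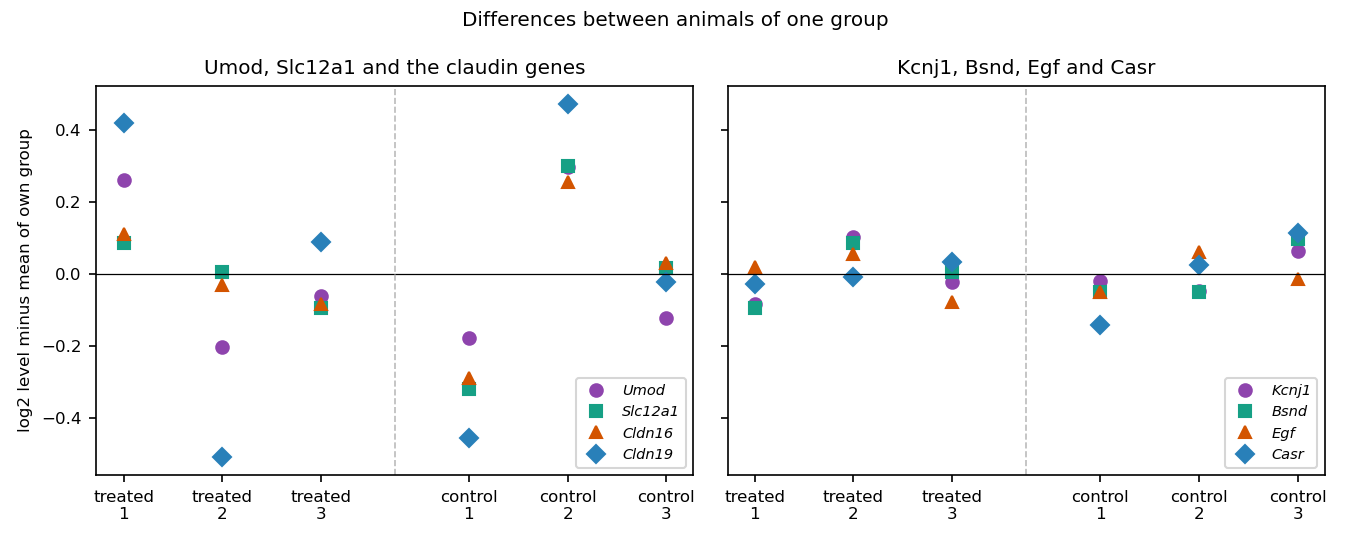
Log2 level of each gene minus the mean of its own group (y axis) in the 3 treated and 3 control rats (x axis), with Umod, Slc12a1, Cldn16 and Cldn19 on the left and Kcnj1, Bsnd, Egf and Casr on the right. On the left treated replicate 1 and control replicate 2 are highest for every gene, whereas on the right no point is further from the mean than Casr in control replicate 1, at -0.14.

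Among transcription factors of the loop and distal tubule, 5 of 13 tested had the same pair of animals highest. They were Irx1, Irx2, Pou3f3, which mice need to form the loop of Henle, Hoxb7 and Sim2. Irx1 had log2 levels of 0.95, 0.69 and 0.56 in treated rats and 0.24, 1.09 and 0.42 in control rats. Irx2 read -1.02, -1.29 and -1.39 in treated rats, against -1.53, -0.65 and -1.40 in control rats. For both factors control replicate 2 was well above the other controls, while the groups overlapped. None of the 13 was called. Of the other lists, the pair was highest for 4 of 26 genes of salt reabsorption, 3 of 15 of uromodulin and EGF handling, 2 of 4 endothelial, 1 of 4 podocyte, 1 of 9 medullary and 1 of 10 proximal tubule markers. It was highest for 0 of the 9 kinase pathway genes and 0 of the 6 macula densa genes tested, and for 0 of the distal convoluted tubule, principal cell, intercalated cell, leukocyte and red cell markers. The proximal tubule marker was Slc7a13. Its log2 levels were 4.17, 1.38 and 2.57 in treated rats (SD 1.40) and 2.51, 5.89 and 4.23 in control rats (SD 1.69). Within each group this is the order of animals seen for Cldn19, over a wider range. The pattern is thus not limited to thick ascending limb genes, and its source was not tested.

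Of the other genes of salt reabsorption and its control in this segment, 1 of 26 tested was called higher and 0 lower by limma; before adjustment 3 higher and 6 lower genes had a p under 0.05, where 25.0% of all genes had one, and the median log2 fold change was -0.077. The called gene was Kcnma1, the pore of the large-conductance potassium channel, with log2 levels of -1.43, -1.54 and -1.46 in treated rats, against -2.32, -2.58 and -2.44 in control rats. It was 1.96-fold higher (log2 fold change 0.97, SE 0.083, limma adjusted p = 0.015), and the dimmer Kcnma1 probe differed by 0.70 on the log2 scale (well above background on 3 treated and 2 control arrays). Cldn14, a claudin that in mice blocks the claudin 16 and claudin 19 pore and is induced by calcium-sensing receptor signalling, read -3.69, -3.55 and -3.37 in treated rats, against -4.10, -4.49 and -4.12 in control rats. Every treated animal was above every control animal. Its log2 fold change of 0.70 (SE 0.14) just missed the threshold (limma adjusted p = 0.053), and it passed when probes had to be well above background on all 6 arrays and when every probe was a feature (adjusted p = 0.044). Kcnj10, a basolateral potassium channel, had a log2 fold change of -0.68 (limma adjusted p = 0.088).

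In the WNK and SPAK kinase pathway, which switches the cotransporter on by phosphorylation, limma called 0 of 9 genes tested; before adjustment 2 genes, both lower, had a p under 0.05, or 2 of 9 where 25.0% of all genes had one. The log2 fold changes of Cab39, Wnk4 and Wnk1, which had the smallest p, were -0.19, -0.28 and -0.14 (limma adjusted p = 0.10, 0.14 and 0.22). At the brightest probe every treated animal lay below every control animal for 4 of the 9 genes, where 18.7% of all genes were lower without overlap. At the other Wnk1 probes (log2 fold changes -0.064, -0.23 and -0.080) and the other Wnk4 probe (-0.12) the groups overlapped. At the other Cab39 probe (-0.13) they did not. Of 15 genes tested that process uromodulin or carry EGF signals, 1 was called higher and 0 lower. This was Tgfa, transforming growth factor alpha, another ligand of the EGF receptor, with log2 levels of -0.21, -0.22 and -0.24 in treated rats, against -0.68, -0.96 and -0.75 in control rats (1.49-fold higher, limma adjusted p = 0.032). Its dimmer probe differed the other way, with a log2 fold change of -0.34 (limma adjusted p = 0.62 over probes), and was well above background on 3 treated and 2 control arrays. The Tgfa call was lost with the mean of its probes and with no filter on dim probes. Egfr, the receptor, had a log2 fold change of -0.50 (limma adjusted p = 0.092), with treated rats at 0.54, 0.031 and 0.22 and control rats at 0.73, 0.76 and 0.79. Areg, the ligand amphiregulin, read -0.49, -1.94 and -2.22 in treated rats, against -4.19, -2.58 and -4.14 in control rats. Its log2 fold change of 2.09 had an SE of 0.63 and did not pass by limma (adjusted p = 0.12).

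Of the 13 transcription factors tested, 3 had a p under 0.05 by limma before adjustment, of which 2 were higher. They were Sim1, Pax2 and Tfap2b, with log2 fold changes of 0.34, 0.36 and -0.33 (limma adjusted p = 0.065, 0.068 and 0.18). Tfap2b is a factor of the AP-2 family, and 2 further probes of Sim1 had log2 fold changes of -0.19 and -0.25. The dimmer Pax2 probe had a log2 fold change of 0.097, with overlapping groups (limma adjusted p = 0.72 over probes). Of the macula densa genes, limma called 0 of 6 tested, and 0 had an unadjusted p under 0.05. The smallest p were those of Slc9a2, Ptger3 and Ptgs2, with log2 fold changes of -0.17, -0.20 and 0.44 (Ptgs2 was well above background on 2 of 3 control arrays).

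**Figure D4:**
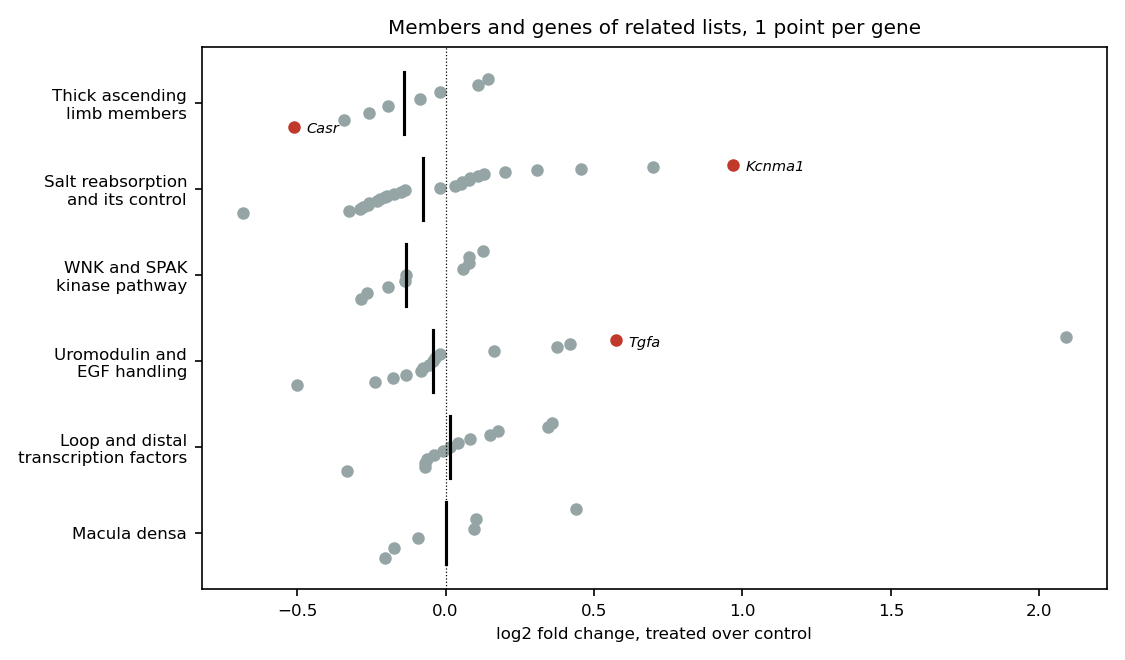
Log2 fold change, treated over control (x axis), of each gene tested in the members and 5 related lists (rows), 1 point per gene, with the median of each list as a vertical bar. Red points passed the limma threshold: Casr at -0.51, Kcnma1 at 0.97 and Tgfa at 0.57.

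Markers of other cell types were compared to show what else moved with the groups. The summed level of the 10 proximal tubule markers was 1574 to 1605 times the 75th percentile in treated rats, against 1680 to 1767 in control rats, and 1 was called lower, Aqp1 (log2 fold change -0.58, limma adjusted p = 0.034). Of 3 distal convoluted tubule markers tested, 1 was called lower, S100g (log2 fold change -0.87, limma adjusted p = 0.044). Their summed level was 25.2 to 29.5 in treated rats and 24.9 to 31.7 in control rats. The 4 red blood cell genes were each higher in every treated animal, with a summed level of 666 to 1023 in treated rats against 435 to 569 in control rats, and none was called, although all 4 had an unadjusted p under 0.05. The 9 medulla and thin limb markers summed to 16.1 to 20.9 in treated rats and 17.4 to 19.9 in control rats, the 6 principal cell markers to 176 to 223 in treated rats and 216 to 241 in control rats, and the 6 intercalated cell markers to 90.9 to 97.0 in treated rats and 91.5 to 105 in control rats. Podocyte markers (4 genes) summed to 28.7 to 35.0 in treated rats and 34.1 to 40.1 in control rats, endothelial markers (4) to 28.8 to 34.4 in treated rats and 33.5 to 34.9 in control rats, and leukocyte markers (4) to 27.2 to 36.2 in treated rats and 35.4 to 68.5 in control rats. Cd74, named for this reason, dominates the leukocyte sum (log2 fold change -0.66, limma adjusted p = 0.20). The other leukocyte markers, Ptprc, Cd3e and Cd68, had log2 fold changes of -0.11, 0.0061 and 0.18, and their groups overlapped. Limma called 0 members of these last 6 lists. The mean was higher in treated rats for 7 of the 9 medullary markers and for 0 of the 6 principal cell markers. Of the 12124 genes tested it was higher for 5281. At an unadjusted p under 0.05, 2 medullary and 1 intercalated marker were higher, and 2 principal cell and 1 podocyte marker were lower. At that cut 25.0% of all genes passed. The intercalated marker is Slc4a1, an anion exchanger that is also among the 4 red cell genes. The 8 thick ascending limb members summed to 308 to 397 in treated rats and 370 to 502 in control rats, a sum that Umod dominates. What part these shifts have in the Casr difference was not tested.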

How the data were processed

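RNA from 6 renal cortices was labelled with Cy3 and hybridised to 1 array each. The spot intensity used is, per the file headers, background-subtracted and detrended by Agilent Feature Extraction 10.7.1.1. The submitters' processing notes name version 10.7, and the design is tied to build rn4. Values in the deposited table are a linear ratio of each signal to its array's 75th percentile, as a comparison with the intensities showed (median ratio 0.998).

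Log2 intensity was centred on the array's 75th percentile over 61537 non-control probes. Outlier spots, 1 to 3 per array and none of a member, were missing. RefSeq accessions were matched to a GRCr8 gene table, and 33344 probes stayed unnamed. Probes well above background on every array of a group were kept, and the brightest stood for its gene. Treated and control arrays were compared with limma 3.58.1 (R 4.3.3), checked on simulated data. The p-values set the group difference against the spread between animals of the same group, 3 per group and all on 1 slide. They take no account of a difference between the slides. With 3 animals per group an exact permutation test cannot go below 0.10.

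The members, lists and tests were chosen with earlier results of these data known. From each of the pathway lists the called genes and the 3 with the smallest p are named, and from marker lists the called genes; exceptions are said to be so, and genes named for their order of animals were chosen after their values were seen. Some genes and motifs of the lists are not reported here. Likeness was taken to the member with the largest change. The 16 alternatives were normexp background, quantile and median scaling, no filter, a stricter filter, the value table, a replicate block, an intensity trend, the mean of probes, every probe as a feature and leaving out each array. Normexp used median spot signals. A slide block could not be fitted, since each slide held 1 group.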

Additional observations from a re-analysis of the deposited data

How the results depend on the processing

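Casr was lower under all 16 alternatives, from -0.58 to -0.45 on the log2 scale, and passed limma under 7 of them (adjusted p 0.020 to 0.118 over the 16). The count of members called lower was 0 with no filter on dim probes (Casr log2 fold change -0.51, adjusted p = 0.073), with the mean of a gene's probes (-0.46, adjusted p = 0.054), and in each fit without 1 array (0 to 0 members; -0.58 to -0.45). Those fits called 0 to 45 genes higher and 0 to 2 lower, with 2461 to 2667 genes at an unadjusted p under 0.05, and no filter gave 37 higher and 7 lower. The count was also 0 with the replicate number as a block (Casr -0.51, adjusted p = 0.118), which changed no call of another member and ended those of Kcnma1 and Tgfa; limma then called 0 genes in all and 2547 had an unadjusted p under 0.05. The numbers are not shown to pair the animals, since deviations of same-numbered animals correlated at -0.12, -0.11 and 0.089 across genes. Calls lower numbered 395 with an intensity trend, 496 with normexp and 63 with the mean of probes, which called 229 higher.

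Of related list genes, 1 was called higher with no filter, 0 with the replicate block and 0 to 0 without 1 array, against 2 with all 6 arrays, Kcnma1 and Tgfa. The mean of probes called Slc9a3 in place of Tgfa, normexp added Pax2 and 1 gene called lower, Maged2, and the stricter filter and the fit of every probe each added Cldn14. At their brightest probe the other 7 members passed under none of the 16 alternatives, while the dimmer Egf and Casr probes passed with normexp. Kcnj1 ran from -0.071 to 0.021 and Slc12a1 from -0.050 to 0.26 without 1 array, both crossing 0. The remaining members kept their sign, but their sizes moved by over 1.5 times over the 16: Egf from -0.17 to -0.015, Bsnd from 0.038 to 0.19, Cldn16 from -0.34 to -0.065, Cldn19 from -0.49 to -0.0043 and Umod from -0.47 to -0.19.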
